A study of Homo sapiens with 56 samples.

Results

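MJ is an established line of cutaneous T-cell lymphoma (CTCL) that carries the retrovirus HTLV-1, and the 8 arrays described here compare MJ cells after 8 days with cobomarsen with untreated MJ cells of the same day. They were chosen by their labelled source, 4 arrays of each group, out of 56 arrays of 14 groups in 4 CTCL lines. Cobomarsen, also named MRG-106, is an oligonucleotide that binds and inhibits the microRNA miR-155. It was added to the culture medium, at a concentration that the labels do not give. Wells were seeded at 200K cells per ml. At 96 hours a count of the untreated wells set 1 dilution that would return them to this density, and all wells were split by it, so the density of the treated wells after the dilution is not fixed by the protocol. The new medium again held the oligonucleotide, and more medium followed 48 hours later. The control wells received no oligonucleotide, so the effect of any oligonucleotide and that of blocking miR-155 cannot be told apart. MJ is 1 line, and the labels do not say whether the 4 arrays of a group came from separate cultures, and the p-values then describe only how far these arrays scatter, which may be technical.

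A microRNA guides a silencing complex to messenger RNAs that pair with its seed, the bases near its 5′ end, and the paired messengers are translated less and degraded. In lymphocytes miR-155 is made from the host transcript MIR155HG, rises on activation and is known for restraining phosphatases and transcriptional repressors that hold activation back. It is abundant in many T-cell and B-cell lymphomas. When it is blocked, its direct targets are free to rise, while genes further down can move either way. The sequences below are the 2 mature strands of miR-155 from RefSeq (GRCh38.p14, plus strand of chromosome 21), shown because the first is the strand that cobomarsen targets. Capitals mark the seed, bases 2 to 8.
hsa-miR-155-5p, chr21:25573983-25574006: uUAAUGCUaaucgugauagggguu
hsa-miR-155-3p, chr21:25574022-25574043: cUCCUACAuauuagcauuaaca
No other mature microRNA among the 2370 names in that table has the seed of miR-155-5p.

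The values are MAS5 signals, a linear measure of probe brightness, and were already scaled to a common level. All tests, log2 changes and fold changes use log2(signal + 16), which understates the change of dim genes. Where a group mean lay under the median of all values, a signal of 73.9, the signals are given here without a fold change, a log2 change or a p-value. Exceptions are the figures of log2 changes and the flagged differences between days and lines, which include such genes. Signals are listed from the lowest to the highest array. After a mean, ± is the standard deviation (SD, n = 4), and after a log2 change it is the standard error from limma. Within each of the groups the arrays correlated at 0.969 or more. The upper quartile of the signal was 425 to 437 on untreated arrays and 446 to 454 with cobomarsen, without overlap. The GAPDH 3′ to 5′ ratio, a sign of RNA quality, was 0.898 to 0.915 and 0.921 to 0.951, also without overlap. Very bright genes sat slightly low: the median log2 change was 0.04 for genes with a mean signal under 500 and -0.13 for those at 10000 or more, against -0.02 and -0.04 after quantile normalization. The part of these differences in the results was not tested beyond that normalization. Of 10 T cell markers 9 were tested, and CD2, CD3D, CD3E, CD3G, CD4, CD5, CD247, LCK and TRBC1 all had group means above the median of all values. The summed signal of these 9 genes was 35390 to 37174 untreated and 39264 to 42796 with cobomarsen. Markers of other blood cells were mostly too dim to test, among them CD14, LYZ, KLRF1 and MS4A1. The summed signal of the 6 B cell markers with a probe set of their own was 596 to 672 untreated and 582 to 768 with cobomarsen. For 6 such monocyte markers it was 145 to 231 and 235 to 273, and for 5 such NK cell markers 161 to 360.3 and 303 to 355. Of these, BLK (from B cells), CSF1R and NCR1 were called higher and PAX5 lower. The fibroblast collagens COL1A1 (1321 ± 136 against 2636 ± 195) and COL3A1 (2055 ± 83.6 against 2800.4 ± 86.7) were bright in both groups. The summed signal of the 6 fibroblast markers was 3471 to 3839 and 5744 to 6183, without overlap. COL1A1 and COL1A2 (113 ± 42.9 against 314 ± 49.3) were called higher. COL3A1 and DCN were not called, and LUM and PDGFRB were too dim to test. Other probe sets of COL1A1 were not called, while another one of COL3A1 was called higher. The COL1A2 call was lost with log2(value + 1) and without untreated replicate 4. For 7 keratinocyte or epithelial markers the summed signal was 2526 to 3886 and 1981 to 2472, also without overlap, with 1 of 2 tested called lower. The part of these markers in the results was not tested.

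In the miR-155 host transcript, read by 1 probe set that carries the names MIR155 and MIR155HG, the 4 untreated arrays read 19520, 19646, 20035 and 20625, and the 4 with cobomarsen 14572, 15051, 15619 and 16003. All treated arrays lay below all untreated ones (log2 change -0.38 ± 0.03, exact permutation test, two-sided, p = 0.0286, the smallest that 4 arrays against 4 allow). The probe set measures the host transcript and does not show how far the mature microRNA was blocked.

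In all, 11946 genes were bright enough to test and 4013 were called at an adjusted p under 0.05, or 33.6% of those tested. Of these 1798 (15.1%) were higher and 2215 (18.5%) lower with cobomarsen, with a median log2 change of -0.02 over all genes tested. A 2-fold change or more was reached by 574 genes (4.8%), 357 of them higher (2.99%) and 217 lower (1.82%), and a 4-fold change by 87 (0.728%), 48 higher (0.402%) and 39 lower (0.326%). Calls were thus common, and the counts of the gene lists below are to be read against 15.1% higher and 18.5% lower. The arrays of the groups did not overlap for 5017 genes (42.0%).

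Of the 20 largest rises, 14 were in genes with an untreated mean under the median of all values. KLRB1, which encodes the lectin-like receptor CD161 of natural killer cells and some T cells, read 15.1, 30.7, 63.6 and 64.7 on untreated arrays and 1697, 1705, 1893 and 2124 with cobomarsen. Its untreated arrays were all near background and every treated array stood far above them. The stretch before its start is printed here because it belongs to the largest rise (RefSeq, GRCh38.p14, minus strand, the 250 bases before the start). Capitals mark the only match to any of the 4 motifs searched.
KLRB1, chr12:9607917-9608166: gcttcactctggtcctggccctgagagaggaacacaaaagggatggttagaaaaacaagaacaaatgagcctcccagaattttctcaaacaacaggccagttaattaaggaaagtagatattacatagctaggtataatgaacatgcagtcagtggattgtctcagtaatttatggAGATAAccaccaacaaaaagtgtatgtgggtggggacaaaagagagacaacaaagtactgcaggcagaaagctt
The motifs were AGATAA, bound by GATA factors, TGANTCA, bound by AP-1, TTCNNNGAA, bound by STAT factors, and AGGTGTGA, bound by T-box factors. Both strands were searched. Each window printed here holds 1 match. Of 35116 windows of this length in the table, 9.17% hold AGATAA, 6.57% TGANTCA, 6.57% TTCNNNGAA and 0.786% AGGTGTGA. A match is a description of the letters and not a binding site.

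ENPP2, which encodes autotaxin, the secreted enzyme that makes lysophosphatidic acid, read 195, 204, 278 and 304 untreated and 3489, 3519, 3654 and 3742 with cobomarsen, a 14.1-fold rise (log2 change 3.81 ± 0.09, limma adjusted p = 5.24e-38). A second probe set of the gene rose by 3.39. TSC22D1, a leucine zipper protein that responds to TGF-beta, rose 15.4-fold, from 174, 199.9, 226 and 250.2 to 3027, 3366, 3796 and 3811 (log2 change 3.95 ± 0.10). A different TSC22D1 probe set fell (log2 change -0.65 ± 0.18), so the probe sets of this gene did not move together. ANTXR2, an anthrax toxin receptor that binds matrix proteins, went from 134 ± 13.6 to 1330.2 ± 62.6 (log2 change 3.17 ± 0.24). MAL, a membrane proteolipid of maturing T cells, rose from 556 ± 64.5 to 3724 ± 61.8, the accessory receptor IL1RAP from 94.4 ± 14.1 to 777 ± 125, and the kelch protein gene KLHL5 from 213 ± 21.9 to 1471 ± 135. These 6 genes, ENPP2, TSC22D1, ANTXR2, MAL, IL1RAP and KLHL5, were the only ones among the 20 largest rises with both group means above the median of all values.

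KLRB1 was one of the 14 with a dim untreated group. Of the others, IGLL1, the surrogate light chain of early B cells, read 4.29, 12.7, 23 and 37.3 untreated and 471, 486, 500.2 and 539 with cobomarsen. The serotonin receptor HTR2B rose from 14.5 ± 12.5 to 416 ± 57.9, PLD5 of the phospholipase D family from 17.8 ± 13.6 to 459 ± 80.6 and the antisense RNA MAP3K5-AS1 from 20.8 ± 7.60 to 260.5 ± 46.6. Secreted factors among them were neuropeptide W, NPW (30.1 ± 30.3 to 342 ± 53.8), the activin subunit INHBB (55.6 ± 36.2 to 531 ± 41.9) and the growth factor PDGFC (30.9 ± 8.82 to 354 ± 18.3). The estrogen-responsive gene GREB1 went from 40.3 ± 20.6 to 403 ± 77.1, the lysosomal protease LGMN from 42 ± 29.5 to 366 ± 60.9 and the myosin MYO3B from 64.8 ± 11.7 to 468 ± 43. ZNF365 (67.1 ± 7.79 to 479.8 ± 27.1), TSPOAP1 (55.1 ± 31.1 to 376 ± 56.2) and RHEX (32.1 ± 8.11 to 268 ± 60.8) complete the set. In every one of these genes the lowest treated array lay above the highest untreated array, since only genes whose groups did not overlap were ranked.

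**Figure D1:**
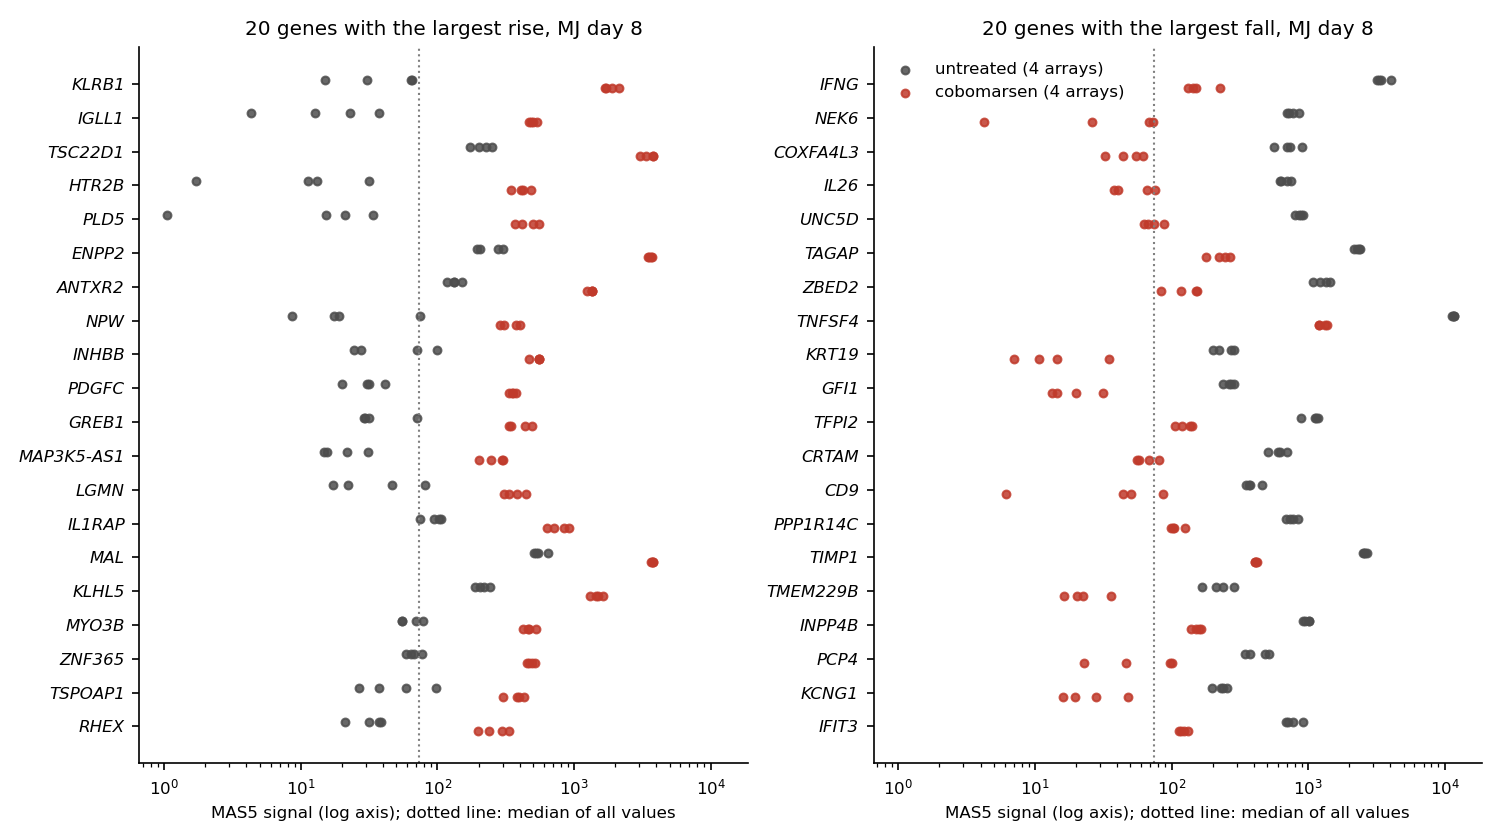
MAS5 signal on a log axis of each of the 4 untreated (grey) and 4 cobomarsen (red) arrays of MJ at day 8 for the 20 genes with the largest rise (left) and the 20 with the largest fall (right). Many of the rises start from signals under the dotted line, the median of all values (73.9), and the groups of each gene are apart, since the genes were chosen among those without overlap.

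The largest fall was that of IFNG, which encodes interferon gamma, the main cytokine of type 1 T cells. Untreated arrays read 3184, 3330.1, 3413 and 4056 and treated arrays 133, 144, 150.1 and 226, a 19.9-fold fall (log2 change -4.31 ± 0.22, limma adjusted p = 2.00e-22). The neighbouring cytokine gene IL26 read 619, 638, 704 and 755 untreated and 37.7, 40.3, 66.1 and 75.9 with cobomarsen. In RefSeq's order of protein-coding genes (GRCh38.p14) IL26 follows IFNG directly on chromosome 12, with IL22 next, and IL22 was tested and not called. The windows before the starts of IFNG and IL26 are shown because these neighbours fell together (RefSeq, GRCh38.p14, minus strand, the 250 bases before each start). Capitals mark a TTCNNNGAA match in IFNG and an AGATAA match, on the opposite strand, in IL26.
IFNG, chr12:68159741-68159990: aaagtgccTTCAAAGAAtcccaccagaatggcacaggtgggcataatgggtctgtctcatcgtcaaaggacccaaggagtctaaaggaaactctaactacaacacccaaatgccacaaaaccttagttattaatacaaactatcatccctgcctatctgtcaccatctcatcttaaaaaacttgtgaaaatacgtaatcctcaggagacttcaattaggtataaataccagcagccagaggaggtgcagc
IL26, chr12:68225811-68226060: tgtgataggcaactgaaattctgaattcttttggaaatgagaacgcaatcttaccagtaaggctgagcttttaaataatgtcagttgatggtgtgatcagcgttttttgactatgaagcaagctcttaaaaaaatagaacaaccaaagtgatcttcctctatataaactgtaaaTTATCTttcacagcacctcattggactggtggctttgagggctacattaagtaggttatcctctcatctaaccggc
None of the 4 motifs is shared by both windows. Of the 15 genes of the 20 largest falls with a window in the table, 2 hold AGATAA, 2 TTCNNNGAA, 1 TGANTCA and 0 AGGTGTGA. The corresponding counts for the 14 such genes among the rises were 4, 0, 1 and 0. These are counts of genes, over 32 windows for the falls and 20 for the rises. They cannot be read directly against the shares of windows given above.

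TNFSF4, the OX40 ligand that costimulates T cells, fell from 11222, 11456, 11623 and 11764 to 1196, 1196, 1327 and 1378, an 8.95-fold fall from a very bright signal (log2 change -3.16 ± 0.08, limma adjusted p = 8.83e-37). TAGAP, a GTPase-activating protein of activated T cells, fell from 2175, 2264, 2344 and 2404 to 178, 223, 245 and 268 (log2 change -3.26 ± 0.21). All 5 probe sets of TAGAP were called lower. The mitotic kinase gene NEK6 read 703, 725, 779 and 855 untreated and 4.24, 26, 68.7 and 73.1 with cobomarsen. GFI1, a zinc finger repressor of blood cell development, went from 266 ± 20.2 to 19.8 ± 8.22. CRTAM, an adhesion receptor of activated cytotoxic T cells, went from 609 ± 78.3 to 65.8 ± 11.2, and the zinc finger gene ZBED2 from 1276 ± 158 to 126 ± 32.5. Outside the lymphoid genes, the protease inhibitors TFPI2 (1082 ± 133 to 126 ± 16.2) and TIMP1 (2599.6 ± 65.2 to 414 ± 6.06) fell, as did the netrin receptor UNC5D (865 ± 49 to 73.1 ± 11), keratin KRT19 (246 ± 39.8 to 16.7 ± 12.4) and the tetraspanin CD9 (390.4 ± 49.7 to 47 ± 33.2). Lower as well were COXFA4L3 (726 ± 139.8 to 48.5 ± 12.9), PPP1R14C (760.4 ± 62.6 to 108 ± 12), TMEM229B (226 ± 50.8 to 23.7 ± 8.51), PCP4 (430.4 ± 85.7 to 67 ± 38.6) and the potassium channel gene KCNG1 (229 ± 24.3 to 27.9 ± 14.3).

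Known targets of miR-155 mostly rose. Of 53 listed targets 51 had a probe set of their own and 47 were tested. Of these 31 were called higher and 4 lower, with a median log2 change of 0.63 against -0.02 over all genes. The list had been compiled with results of these data known, so its direction is not independent evidence. PICALM, which helps to assemble clathrin coats, read 1801, 1885, 1904 and 2010.5 untreated and 5128, 5299, 5729.7 and 6050.0 with cobomarsen (log2 change 1.54 ± 0.11). MYB, a transcription factor of immature blood cells, rose from 5722, 6163, 6264 and 6385 to 19928, 19954, 21196 and 21969 (log2 change 1.76 ± 0.09). The treated arrays all lay far above the untreated ones. The RNA-binding protein gene CARHSP1 rose by 1.85 ± 0.12 on the log2 scale, the myosin MYO10 by 1.76 ± 0.19 and the scaffold protein gene SDCBP by 1.65 ± 0.09. PELI1, a ubiquitin ligase that restrains NF-kB in T cells, rose by 1.44 ± 0.12, the checkpoint receptor CTLA4 by 1.41 ± 0.31 and the repressor BACH1, whose call was lost in the mean of its probe sets, by 1.32 ± 0.16. Further members that rose were S1PR1 (1.21 ± 0.16), which guides lymphocytes out of tissues, the histone demethylase KDM5B (1.17 ± 0.12), the mTOR activator RHEB (1.02 ± 0.10), the mitotic brake WEE1 (0.99 ± 0.12) and JARID2 of Polycomb complex 2 (0.92 ± 0.11).

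The classic phosphatase target INPP5D, which encodes SHIP1, rose from 945 ± 56.7 to 1171 ± 57.9 (log2 change 0.31 ± 0.09, adjusted p = 0.00375 by limma), and its mean over all probe sets was not called. SOCS1, a brake on cytokine signalling, went from 3694 ± 345 to 5286 ± 343 (log2 change 0.52 ± 0.17, adjusted p = 0.0155 by limma). The SOCS1 call was lost with log2(value + 1) and with the mean of all probe sets. Listed targets that were lower were the germinal centre repressor BCL6, which fell from 4409, 4938, 5371 and 5834 to 2087, 2153, 2159 and 2469 (log2 change -1.20 ± 0.17), the mismatch repair gene MSH6 (-0.36 ± 0.08), SMAD2 (-0.24 ± 0.08) and the receptor ACVR1C, at 128 ± 31.2 against 82.4 ± 16.6. SMAD2 had 4 called probe sets, of which 3 were lower and 1 higher, the latter from 283 ± 18.2 to 545 ± 78.3. ACVR1C, with overlapping groups, lost its call with log2(value + 1), without the filter, in fits of MJ arrays alone and when any of 6 single arrays was left out. These were untreated replicates 1, 2 and 4 and cobomarsen replicates 1, 2 and 4.

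Cytokine genes as a group were lower. Of 20 tested, 13 were called lower and 2 higher (median log2 change -0.60). After IFNG and IL26 the largest fall was that of IL6, a cytokine that signals through STAT3, from 935, 992, 1136 and 1146 to 178, 186, 196 and 218 (log2 change -2.34 ± 0.22). The type 2 cytokine genes, which lie close together on chromosome 5, also fell. IL4 went from 197 ± 15 to 58.1 ± 28.3, IL13 from 2887, 2948, 2997 and 3272 to 1602, 1764, 2003 and 2124 (log2 change -0.69 ± 0.15) and IL5 from 2622, 2673, 2781 and 2818 to 1507, 1654, 1736 and 1803 (log2 change -0.70 ± 0.16), the last a call that was lost with log2(value + 1). IL16, a CD4 ligand, fell from 434 ± 40.5 to 169 ± 26.7, and the macrophage growth factor CSF1 from 673 ± 82.5 to 278 ± 39.6. OSM, oncostatin M of the IL-6 family, rose from 392, 422, 435 and 464 to 1177, 1238, 1257 and 1305 (log2 change 1.51 ± 0.20). The second member called higher, IL3, read 99.9, 123, 125 and 145 untreated and 141, 185, 227 and 263 with cobomarsen, with overlapping groups, and lost its call in 7 alternatives, among them those without untreated replicate 1, 2 or 3 and without cobomarsen replicate 1 or 2.

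Chemokine genes went both ways, 3 of 8 higher and 4 lower. CCL22 and CCL17 are neighbours on chromosome 16, separated by CX3CL1, and both are ligands of CCR4. CCL22 fell from 3642, 3646, 4101 and 4476 to 596, 759, 805 and 1001 (log2 change -2.32 ± 0.28), while CCL17 rose from 442, 493, 505 and 547 to 847, 960.4, 1034 and 1069 (log2 change 0.95 ± 0.17). CCL1 fell from 10772 ± 938 to 3594 ± 226 and CCL4 from 2068 ± 373 to 928 ± 139.5. CCL5 rose from 13806 ± 900.4 to 22862 ± 885 and CXCL10, known as a gene induced by interferon gamma, from 16774 ± 337 to 23608 ± 826. Among chemokine receptors, the skin-homing receptor CCR10 fell from 482 ± 32.8 to 183 ± 15.3, a call lost with log2(value + 1), and CCR6 rose from 58 ± 12.3 to 199 ± 68.6.

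Cytokine receptor genes were split, with 9 of 27 higher and 7 lower. The chains of the IL-2 receptor moved apart: the beta chain IL2RB fell from 4561, 5155, 5174 and 5217 to 1805, 1983, 1989 and 2249.7 (log2 change -1.32 ± 0.16). The alpha chain IL2RA rose from 16246 ± 1098 to 23244 ± 1201 (log2 change 0.52 ± 0.09) and the common gamma chain IL2RG from 4344 ± 196 to 6727 ± 224 (log2 change 0.63 ± 0.08). For IL-6, the ligand-binding chain IL6R fell from 262 ± 15.2 to 117 ± 16.9, and the signalling chain IL6ST rose from 380.1 ± 37.8 to 778 ± 93. The IL6R call was lost with log2(value + 1) and the IL6ST call in the mean of its probe sets. The interferon gamma receptor chain IFNGR2 fell from 5006 ± 181 to 2433 ± 237 (log2 change -1.04 ± 0.12), and IL21R fell from 5538 ± 253 to 3208 ± 325, while 1 of its 3 probe sets was called higher.

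Of the TNF superfamily ligands, 4 of 9 fell and 1 rose. Beside TNFSF4, the gene for LIGHT, TNFSF14, fell from 2157 ± 123 to 694 ± 85.4 (log2 change -1.62 ± 0.20), and TNF from 1577 ± 183 to 836 ± 65 (log2 change -0.90 ± 0.09). Of 14 TNF receptor superfamily genes tested 1 was called higher and 4 lower. TNFRSF11A, which encodes the receptor RANK, rose from 3331 ± 195 to 7556 ± 189. Among costimulatory and checkpoint genes 5 of 18 were higher and 6 lower. CD226 and TIGIT, an activating and an inhibitory receptor that share ligands, both fell, CD226 from 189 ± 38 to 28.8 ± 12.5 and TIGIT from 6024 ± 193 to 3474 ± 172, the latter a call that was lost with log2(value + 1). CTLA4 read 370.5, 424, 440.2 and 445 untreated and 1085, 1098, 1165 and 1231 with cobomarsen, and the costimulatory receptor ICOS rose from 5042 ± 169.6 to 7944 ± 238.

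Of 16 genes of T cell receptor signalling 6 were called higher and 3 lower. Several signalling chains of the receptor complex were higher, while CD3E was not called. CD3D rose from 7954, 8273, 8348 and 8515 to 11654, 12316, 12613 and 14424 (log2 change 0.62 ± 0.09), the zeta chain CD247 from 3268 ± 164 to 4921 ± 164 (log2 change 0.59 ± 0.07) and CD3G from 981 ± 131 to 1274 ± 137, the last with overlapping groups and a call that was lost without cobomarsen replicate 3. TRBC1, a constant region of the receptor's own beta chain, fell from 4741, 4808, 4935 and 5056 to 999, 1204, 1221 and 1263 (log2 change -2.05 ± 0.09, adjusted p = 1.35e-25 by limma). All 3 of its probe sets fell. Such constant regions have near-identical copies, so the probe set may not tell TRBC1 from TRBC2. The kinase gene TXK rose from 242 ± 44.3 to 1339 ± 76.2 (log2 change 2.41 ± 0.24), and the phosphatase CD45, PTPRC, from 446 ± 47.1 to 904 ± 39.2. Of the genes for natural killer receptors and cytotoxic granules, KLRB1, GZMM (69.5 ± 22.1 to 271 ± 14.4) and CTSW (729 ± 38 to 1923 ± 109.5) rose and perforin, PRF1, fell from 3417 ± 304 to 1898 ± 148.

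Transcription factors of the T lineage rose in 15 of 31 cases and fell in 6 (median log2 change 0.45). TBX21, the master regulator T-bet of type 1 cells and a known activator of IFNG, fell from 1852, 1940.2, 2085 and 2096 to 303, 345, 394 and 396, a 5.37-fold fall (log2 change -2.42 ± 0.26). GATA3, its type 2 counterpart, rose from 10565, 10723, 10782 and 10982 to 16586, 16783, 17591 and 18213 (log2 change 0.68 ± 0.09). Its groups did not overlap, and on the same arrays the type 2 cytokines IL4, IL5 and IL13 were lower. LEF1, a factor of naive and immature T cells, rose from 357, 364, 456 and 492 to 1782, 1805, 2018 and 2038 (log2 change 2.16 ± 0.21). PRDM1, which encodes BLIMP1, rose from 2729 ± 99.5 to 6447 ± 469.7 (log2 change 1.23 ± 0.09), while its partners in mutual repression BCL6 and BACH2 fell, BACH2 from 855 ± 91.7 to 301 ± 59.9 (log2 change -1.47 ± 0.10). The inhibitors of DNA binding ID1 (411 ± 86.8 to 1680.1 ± 94.8) and ID3 (622 ± 43.1 to 1421 ± 278), which are BMP and TGF-beta targets, were higher, and so was TOX, a factor often raised in CTCL (5034 ± 253 to 7723 ± 605).

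**Figure D2:**
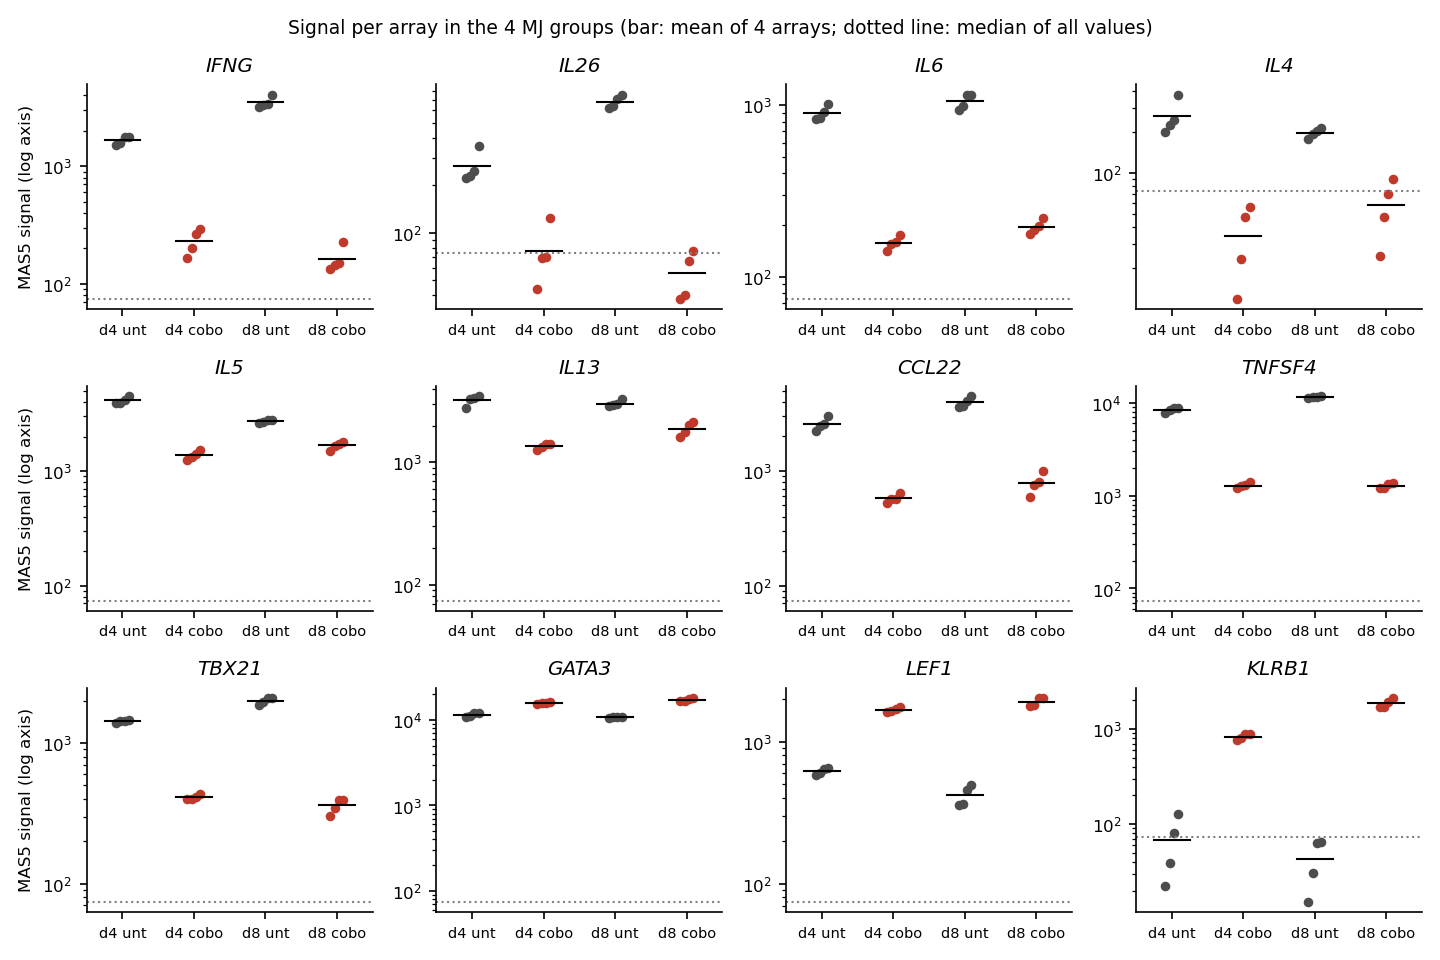
MAS5 signal on a log axis of each array in the MJ groups of day 4 (d4) and day 8 (d8), untreated (unt, grey) and cobomarsen (cobo, red), for 12 cytokine, chemokine and T cell genes. At day 8 the untreated and cobomarsen arrays of every gene drawn lie apart, and IFNG and IL26 are brighter in untreated cells at day 8 than at day 4.

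In the JAK-STAT pathway STAT3 read 6921, 6937, 6958 and 7189.7 untreated and 2439, 2452, 2563 and 2696 with cobomarsen, a 2.75-fold fall (log2 change -1.46 ± 0.09, limma adjusted p = 3.22e-19). All 4 probe sets of STAT3 were called lower. Its targets PIM1, a survival kinase, and SOCS3, a feedback inhibitor, fell as well, PIM1 from 2131 ± 193 to 619.7 ± 49.4 and SOCS3 from 1154 ± 85.6 to 602 ± 109. The paralogues of STAT5 moved apart, STAT5A from 4678 ± 250.3 to 2979 ± 130.3 (log2 change -0.65 ± 0.10) and STAT5B from 9829 ± 493 to 12147 ± 443 (log2 change 0.31 ± 0.10), where the STAT5B call was lost in the mean of its probe sets. Over the whole list 5 of 24 genes were higher and 8 lower.

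Listed feedback genes of the MAP kinase and ERK pathways, many of them phosphatases, went down in 9 of 19 cases and up in 3 (median log2 change -0.21). DUSP5, a phosphatase of ERK, fell from 589, 614, 622 and 622 to 146, 182, 184 and 214. DUSP10 went from 1184 ± 61.8 to 442 ± 43.1, DUSP16 from 1103 ± 61.7 to 436 ± 42.6, DUSP2 from 13865 ± 1241 to 7122 ± 573 and the early response factor EGR3 from 273 ± 47.2 to 109.9 ± 63.9. Of AP-1, BATF and IRF factors 7 of 23 were lower and 1 higher, among the lower ones FOSL1 (418 ± 84.6 to 189.5 ± 8.04), whose call was lost with log2(value + 1). JUNB changed by -0.48 ± 0.09 and ATF3 by -0.70 ± 0.18 on the log2 scale. NF-kB genes were split, 7 of 27 higher and 9 lower, with the adaptor TRAF1 falling from 6061 ± 149 to 2419 ± 97.1.

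In the PI3K pathway 7 of 24 genes rose and 6 fell, and several of the larger changes were in brakes. The lipid phosphatase INPP4B fell from 918, 955, 1016 and 1017 to 138, 150.2, 158 and 164 (log2 change -2.56 ± 0.24). The AKT phosphatase PHLPP1 rose from 456 ± 50.7 to 1249 ± 315 and the PI3K inhibitor PIK3IP1 from 377 ± 34.2 to 899.8 ± 25.4. PREX1, an exchange factor for Rac that PI3K activates, fell from 628, 779.9, 883 and 1252 to 147, 159, 165 and 181 (log2 change -2.29 ± 0.22). The FOXO factors moved apart, FOXO1 from 1336, 1366, 1460.2 and 1469 to 623, 625, 698 and 745 (log2 change -1.05 ± 0.13) and FOXO3 from 1339.9 ± 28.6 to 2228 ± 85.7 (log2 change 0.73 ± 0.07).

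Of 35 interferon-stimulated genes 18 fell and 0 rose (median log2 change -0.59). IFIT3, an antiviral protein gene, fell from 688, 712, 769 and 923 to 114, 118, 123 and 132 (log2 change -2.51 ± 0.12). The exonuclease gene ISG20 fell from 2063 ± 90.4 to 552 ± 18.3, the restriction factor TRIM22 from 7451 ± 70.6 to 2568 ± 40.7 and PARP9 from 893 ± 94.4 to 304 ± 39.9. The bright genes ISG15 (11542 ± 439.8 to 6918 ± 309) and IFITM1 (15019 ± 365 to 8086 ± 387) were lower, each outside the range of the other group. Of 14 genes of class I presentation 4 were lower, 0 higher and 10 not called. The lower share was 28.6%, against 18.5% over all genes, and the median log2 change was -0.16 (-0.12 after quantile normalization). The 4 lower genes were the class I activator NLRC5 (-1.02 ± 0.17 on the log2 scale), PSMB8, PSMB9 (-0.72 ± 0.07) and the peptide transporter TAP1 (-0.52 ± 0.06). PSMB8 and PSMB9 belong to the immunoproteasome.

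Class II presentation went the other way, with 9 of 12 genes called higher and 0 lower (median log2 change 0.56). CIITA, the master activator of class II genes, rose from 158, 211, 227 and 270.5 to 632, 643, 816 and 856 (log2 change 1.70 ± 0.18). The invariant chain CD74 rose from 13035 ± 526 to 19847 ± 447, the peptide exchange factor HLA-DMB from 2304 ± 328 to 4628 ± 669.5 and HLA-DQA1 from 6007 ± 275 to 11316 ± 339, a call that was lost with log2(value + 1). Genes of this family share sequence, so a probe set can read more than 1 of them. CIITA and the class I activator NLRC5, both of the NLR family and both inducible by interferon gamma, changed in opposite directions.

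Targets of p53 fell in 15 of 24 cases and rose in 1 (median log2 change -0.49). The cell cycle inhibitor p21, CDKN1A, fell from 6024, 6215, 6658 and 7055 to 3549, 3765, 3901 and 4284 (log2 change -0.74 ± 0.08). GADD45A fell from 7003 ± 336 to 3875 ± 183, the stress cytokine GDF15 from 254 ± 24.8 to 52 ± 22.8 and the nuclease gene AEN from 2147 ± 156 to 1176 ± 143. The exception, TP53INP1, is also a listed miR-155 target and rose by 0.72 ± 0.12 on the log2 scale, a call that was lost in the mean of its probe sets.

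Proliferation genes were lower by small amounts at day 8. Of 32 genes of the G1/S transition and DNA replication 17 fell and 1 rose (median log2 change -0.31), and of 30 mitotic genes 22 fell and 2 rose (median -0.44). CDC20, an activator of the anaphase-promoting complex, fell from 4435, 4539, 4667 and 4808 to 2639, 2699, 2815 and 2843 (log2 change -0.74 ± 0.07). The mitotic kinase CDK1 fell from 7980.5 ± 249 to 5175 ± 499, the spindle checkpoint gene BUB1B from 5075 ± 239 to 3068 ± 176 and the proliferation marker MKI67 from 1905 ± 121 to 1336 ± 106. In the replication machinery CDC45 had a log2 change of -0.61 ± 0.09, the helicase subunit MCM6, whose call was lost in the mean of its probe sets, -0.47 ± 0.11 and the sliding clamp PCNA -0.33 ± 0.06. After quantile normalization the medians of these lists were -0.28 and -0.41, whereas that of 18 ribosomal protein genes, of which 0 were called in the deposited scaling, went from -0.16 to -0.04.

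Of 14 genes of lysophospholipid and prostaglandin pathways 6 rose, ENPP2 the most, and 2 fell. ALOX5AP, the partner of 5-lipoxygenase in leukotriene synthesis, went from 4135, 4391, 4899 and 5040.1 to 14230.5, 15042, 15202 and 15474 (log2 change 1.70 ± 0.11), while the prostaglandin synthase PTGS2 fell from 15443 ± 407 to 11363 ± 606. In cholesterol and fatty acid synthesis 8 of 28 genes rose and 4 fell (median log2 change 0.18), led by the synthase HMGCS1 (2482 ± 359 to 5544 ± 357). Genes that BACH1 represses or that belong to redox defence rose in 8 of 14 cases and fell in 1, with the repressor BACH1 itself among the former. Heme oxygenase, HMOX1, rose from 216 ± 25.3 to 525 ± 43.3 and thioredoxin reductase, TXNRD1, from 2456 ± 74.7 to 5895 ± 324. GCLM was lower on the probe set used and higher on another one. Of 26 genes of the integrated stress and unfolded protein responses 5 were called higher and 8 lower. ERN1, a sensor of the unfolded protein response, rose from 203 ± 24.7 to 670.4 ± 101 and the asparagine synthetase ASNS fell from 7933 ± 304 to 4322 ± 303.

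**Figure D3:**
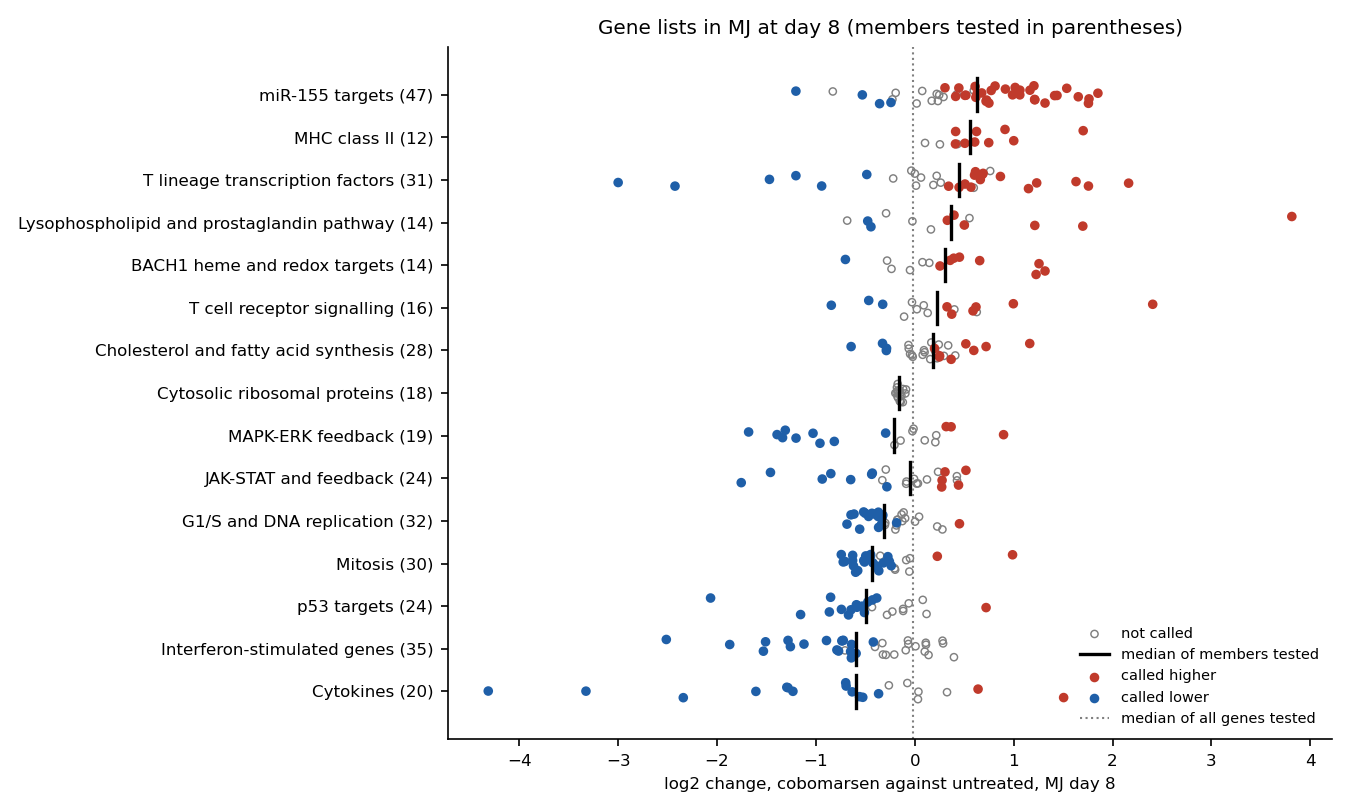
Log2 change of each tested member of 15 gene lists in MJ at day 8, with the number of members tested in parentheses. Filled red and blue points were called higher and lower, open points were not called, black bars are list medians and the dotted line is the median of all genes tested (-0.02). The miR-155 targets (median 0.63) lie mostly to the right and the cytokines (-0.60) mostly to the left.

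Calls in other lists are given as counts, against 15.1% higher and 18.5% lower over all genes tested. In oxidative phosphorylation 1 of 29 genes was higher (3.45%) and 4 were lower (13.8%). The cytoskeleton had 4 higher and 3 lower of 29 (13.8% and 10.3%). Clathrin-coated endocytosis had 1 and 2 of 16 (6.25% and 12.5%), where PICALM was the one rise. Shares in these lists lay under those over all genes in both directions, so their counts do not set them apart. Adhesion genes were higher in 6 and lower in 3 of 18 cases, and Polycomb genes in 4 and 6 of 22. The BCL2 family was higher in 4 and lower in 2 of 17, hypoxia and glycolysis in 7 and 5 of 27, and TGF-beta and SMAD genes in 8 and 6 of 25. Of 13 marker genes of CTCL 4 rose and 3 fell.

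Day 4 was meant to show direct and day 8 downstream targets of the oligonucleotide, and MJ was measured at both, on separate arrays. At day 4, 3266 of 11988 genes were called (27.2%), with 13% higher and 14.2% lower. Of the called genes 2524 were called in the same direction at day 8, which is 77.3% of the day 4 list and 62.9% of the day 8 list. Over 11641 genes tested at both days the log2 changes correlated at r = 0.819, a description across genes, which are not independent replicates. The change itself differed between the days for 161 of 11934 genes (1.35%), 99 of them with a larger change in the same direction at day 8, 4 with a smaller one and 58 with opposite signs. By direction the difference was above 0 for 45 genes (0.377%) and below 0 for 116 (0.972%). The count of 161 was 96, 91 and 81 without untreated replicates 1, 2 and 3 and 90 without cobomarsen replicate 3, and it was also more than 1.5 times lower without untreated replicate 4. It was 431 in a fit of the 16 MJ arrays alone and 99 without the intensity trend. This comparison shares the day 8 arrays with the results above.

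The fall of IFNG was larger at day 8. At day 4 it read 1522, 1583, 1755 and 1788 untreated and 166, 203, 264 and 293 with cobomarsen. All untreated arrays of day 4 lay below those of day 8, while the treated arrays of both days overlapped (difference of log2 changes -1.52 ± 0.31, limma adjusted p = 0.00389). IL26 had read 264 ± 62.5 untreated and 76.7 ± 33.8 with cobomarsen at day 4. NEK6 had gone from 464 ± 66.3 to 91.5 ± 7.76 and GFI1 from 278 ± 24 to 98.8 ± 11.9 at day 4, before the dim day 8 values given above. Among the rises, TSC22D1 had gone from 329.8 ± 31.6 to 1823 ± 175 (difference 1.54 ± 0.14, adjusted p = 4.34e-11) and ENPP2 from 348 ± 20.7 to 2844 ± 58.2 (difference 0.84 ± 0.12, adjusted p = 1.62e-05). KLRB1 read 828 ± 60.03 with cobomarsen at day 4 and 1855 ± 201 at day 8.

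Some genes ran the other way. IL3 had fallen at day 4, from 162, 163, 175 and 209 to 37.7, 78.8, 88.8 and 91.1, and was higher at day 8 (difference 1.78 ± 0.35, adjusted p = 0.00178). IL5 had fallen further at day 4, from 3889, 3963, 4191 and 4499 to 1251, 1318, 1414 and 1522 (log2 change -1.58 ± 0.16), than at day 8 (difference 0.88 ± 0.23, adjusted p = 0.042). The IL5 call was lost in 9 alternatives, among them 7 of the 8 that leave out 1 day 8 array, the exception being cobomarsen replicate 1. For IL13 the difference was not called (0.55 ± 0.21, adjusted p = 0.303). Glutamine synthetase, GLUL, had risen at day 4 from 3751 ± 421 to 7852 ± 499.9 and stood at 4346 ± 286 and 3552 ± 489 at day 8, where it was not called. Its day difference was lost without cobomarsen replicate 4. With log2(value + 1) none of the day differences of IFNG, IL26, IL3, IL5 and GLUL was called, and the one of TSC22D1 was not called in the mean of its probe sets.

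The cell cycle lists were near 0 at day 4, with medians of -0.03 for G1/S and DNA replication and -0.02 for mitosis, and 3 higher and 3 lower genes of 32, and 6 higher and 4 lower of 30. The difference between days was called for 6 and 7 members, all lower at day 8, among them CDK2 (-0.45 ± 0.11), CDC20 (-0.43 ± 0.10) and BUB1B (-0.47 ± 0.08). The call of CDK2 was lost in the mean of its probe sets and that of CDC20 without untreated replicate 3. The miR-155 targets differed between the days in 0 of 46 genes tested, where 1.35% of all genes did, so this count does not set the list apart. Their median was 0.60 at day 4 and 0.63 at day 8.

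**Figure D4:**
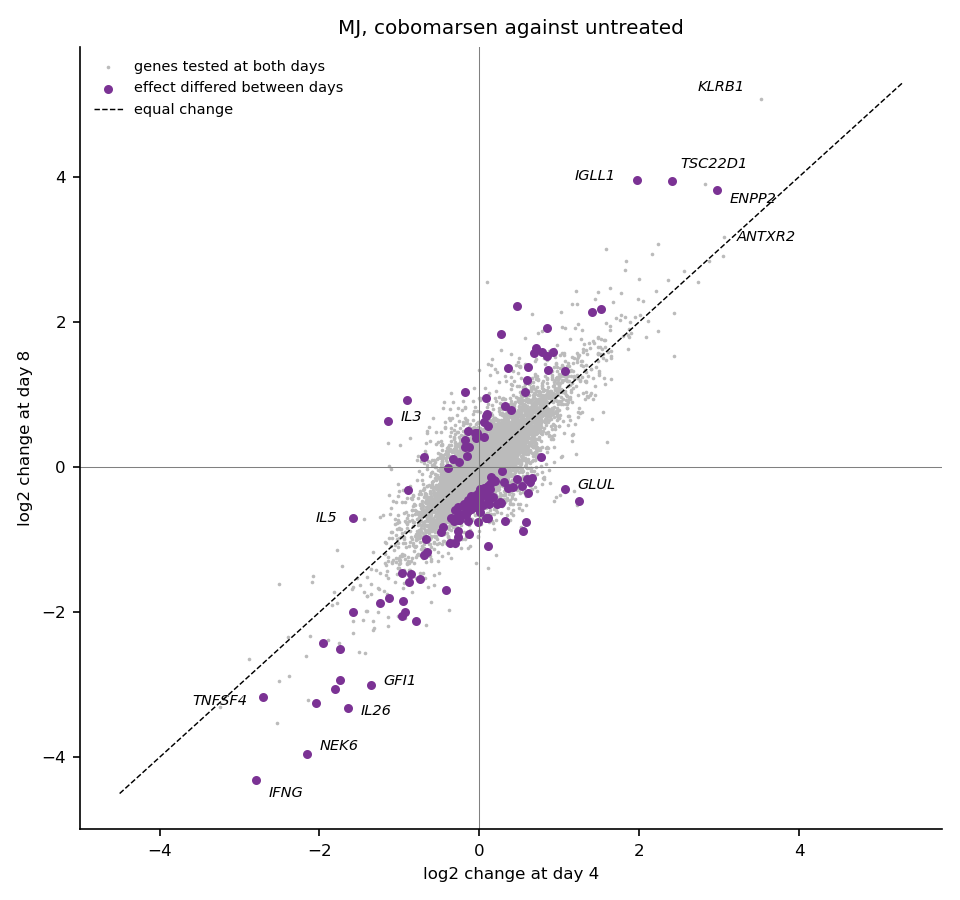
Log2 change with cobomarsen in MJ at day 4 (x axis) and day 8 (y axis) for 11641 genes tested at both days, with genes whose effect differed between the days in purple. Most points follow the dashed line of equal change, IFNG and NEK6 fall below it and TSC22D1 lies above it.

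The day 8 effect in MJ was also set against the mean of the day 8 effects in the CTCL lines HuT102 and MyLa. HuT102 carries HTLV-1 as well. The effect differed for 3116 of 11785 genes (26.4%), 1403 (11.9%) with a higher and 1713 (14.5%) with a lower value in MJ, and this comparison too shares the MJ arrays. Of the 494 genes with a called change of 2-fold or more in MJ that were tested here, 198 were called in the same direction in HuT102 and 70 in the opposite one. In MyLa these numbers were 196 and 43. Over all genes tested, 18.9% were called higher and 21.2% lower in HuT102 (40.1% in all) and 23.5% higher and 18.2% lower in MyLa (41.7%). In all 3 lines 113 of the 494 went the same way.

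Listed miR-155 targets were mostly higher in the other lines too, with 31 of 47 higher in HuT102, 28 of 46 in MyLa and 23 of the 31 that rose in MJ higher in all 3 lines. PICALM rose by 2.03 ± 0.11 in HuT102 and 2.10 ± 0.11 in MyLa on the log2 scale, and MYB by 2.05 ± 0.09 and 1.65 ± 0.09. KLHL5 went from 188 ± 36.2 to 693 ± 80.6 in HuT102 and from 165 ± 26.1 to 865 ± 41.5 in MyLa. Of the 20 largest falls in MJ, 15 were tested in HuT102, with 3 called lower and 9 higher, and 7 in MyLa, with 3 lower and 3 higher. Of the 20 largest rises, 9 were tested in HuT102 and 11 in MyLa, and in each line 6 were called higher and 1 lower.

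IFNG, bright in HuT102, read 5368 ± 641 untreated and 6012 ± 648 with cobomarsen there (log2 change 0.16 ± 0.22) and was near background in MyLa. TNFSF4 rose in HuT102 from 4168 ± 269 to 16126 ± 655 and fell in MyLa from 7845 ± 369 to 3297 ± 90.2 (difference -3.51 ± 0.09, adjusted p = 2.03e-34). TFPI2 rose from 458 ± 63.3 to 4561 ± 598 in HuT102 and CRTAM from 565 ± 98.5 to 3283 ± 466, where both had fallen in MJ. CCL22 rose in HuT102 from 3105 ± 836 to 11849 ± 2268. CD9 rose in MyLa from 194 ± 21.2 to 1021 ± 27.5. ENPP2, the large rise of MJ, started from a much higher signal elsewhere, at 1679 ± 141 in untreated HuT102 and 4321 ± 88.7 in untreated MyLa cells, and changed there by -0.38 ± 0.09 and 0.66 ± 0.09 on the log2 scale.

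A change of 2-fold or more in MJ and a called change of the opposite sign in both other lines was seen for 10 genes, BACH2, CAMK2D, DSCAML1, DUSP10, ENOX1, FOXO1, NDRG1, NEK6, OSTF1 and PAG1, which were singled out after their values were seen. OSTF1 was the one that was higher in MJ. FOXO1 rose in HuT102 from 1987 ± 175 to 3819 ± 349 and in MyLa from 522 ± 164 to 1039 ± 67 (difference -2.03 ± 0.16, adjusted p = 4.81e-15). NEK6 went from 439.5 ± 22.4 to 2231 ± 235 in HuT102, and BACH2 from 2249.8 ± 176 to 3082 ± 333 in HuT102 and from 1443 ± 219 to 2060.3 ± 121 in MyLa.

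Cholesterol and fatty acid genes responded differently in MJ, with the difference called higher in MJ for 22 of 28 genes and lower for 1. In HuT102 21 of 27 were called lower and in MyLa 22 of 27. The desaturase SCD was not called in MJ, at 4272 ± 201 untreated and 5057 ± 249 with cobomarsen. It fell in HuT102 from 5795 ± 180.3 to 1165 ± 314 and in MyLa from 3409 ± 251 to 1415 ± 31.6 (difference 2.04 ± 0.13, limma adjusted p = 1.10e-17). DHCR7, the last enzyme of cholesterol synthesis, was not called in MJ either and differed by 1.96 ± 0.13. MSMO1, which was called higher in MJ, differed by 1.52 ± 0.10. G1/S genes were lower in 23 of 32 cases in HuT102 and higher in 25 of 32 in MyLa. The median log2 changes were -0.52 and 0.54, against -0.31 in MJ. The line difference, taken from the mean of these opposite effects, was called lower in MJ for 15. Class II genes were higher in 10 of 12 cases in HuT102 and lower in 5 of 10 in MyLa. Targets of p53 were lower in 12 of 22 cases in MyLa and higher in 11 of 24 in HuT102.

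**Figure D5:**
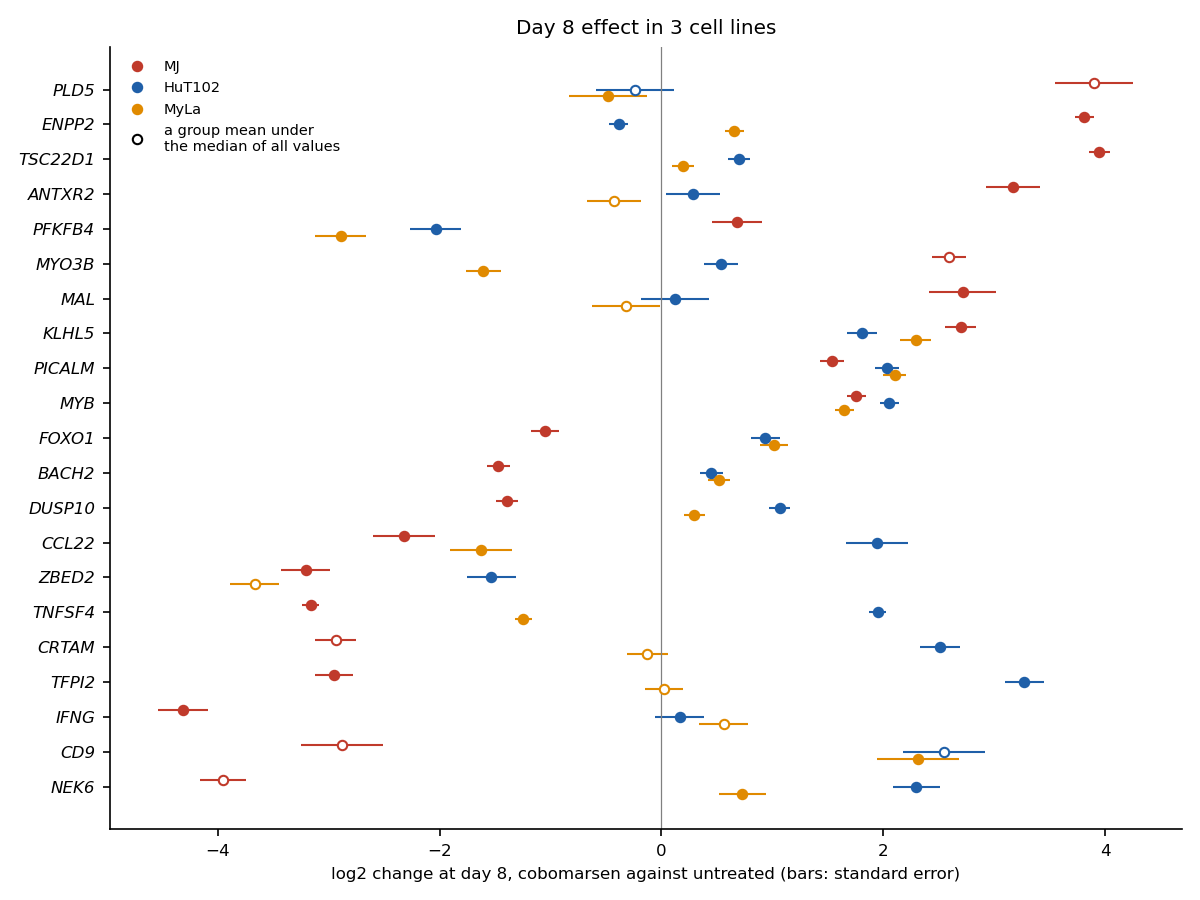
Log2 change with cobomarsen at day 8 in MJ (red), HuT102 (blue) and MyLa (orange) for 21 genes, with the standard error from limma as bars. Open points have a group mean under the median of all values, so their size depends on the value added before the logarithm. KLHL5, PICALM and MYB lie to the right in each line, and FOXO1, BACH2 and DUSP10 lie to the left in MJ and to the right in HuT102 and MyLa.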

How the data were processed

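RNA of 56 samples was hybridised to Affymetrix arrays, and the authors deposited 1 table of MAS5 signal intensities (MAS5 is named in the submitters' processing notes, without a version). These intensities had been scaled between arrays before deposit, and array design and number limit their precision. Of 54675 probe sets 41091 carry 1 gene symbol, 1801 several and 11721 none. The brightest probe set over 56 arrays stood for each of 19775 genes, so other transcripts of a gene are not seen. A gene was tested where its mean, over the arrays of the comparison, was at least the median of all values (log2 of 6.49).

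limma 3.58.1 (R 4.3.3) was fitted to log2(value + 16) over 56 arrays in 14 groups, with an intensity trend, 42 residual degrees of freedom, two-sided tests and Benjamini-Hochberg adjustment over all genes tested. Arrays were grouped by their labels, which name no batch. Single values were tested by exact permutation (SciPy 1.17.1). The fit was tested on simulated data.

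The genes named were the 20 largest rises and falls among called genes whose groups did not overlap, members of the gene lists, the host transcript, the 12 largest changes in each direction of the day and line differences, genes with probe sets called in opposite directions, and next-ranked genes of the same families. Members, lists and this rule were chosen with earlier results of these data known. Alternatives covered the value added, filters, normalization, probe set choice, arrays fitted, trend and leaving out each day 8 array.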

Additional observations from a re-analysis of the deposited data

Results flagged for a closer look

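In 17 of 372 groups of 4 arrays of the named genes 1 array stood apart from the other 3, with a gap beyond Dixon's 95% limit for a group's range, and chance gives about 1 in 20. The gap as a share of the range was found among untreated arrays for GREB1 (0.915), TFPI2 (0.841), ACVR1C (0.856), CCL5 (0.877), IL2RB (0.911), STAT3 (0.861) and TPX2 (0.854). Among arrays with cobomarsen it was found for ANTXR2 (0.953), INHBB (0.989), CARHSP1 (0.872), SMAD2 (0.982), TNFRSF11A (0.841), CTSW (0.883), STAT5B (0.887), ISG20 (0.913), MCM6 (0.864) and DSCAML1 (0.876). The groups of SMAD2 and ACVR1C overlapped, while those of the other genes did not.

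The effect of cobomarsen in MJ differed between day 8 and day 4 for a number of named genes (limma, adjusted p under 0.05). The difference of log2 changes was above 0 for ENPP2 (0.84), IGLL1 (1.98), TSC22D1 (1.54), IL5 (0.88), IL3 (1.78) and ERN1 (0.94). It was below 0 for CRTAM (-1.20), GFI1 (-1.64), IFIT3 (-0.77), IFNG (-1.52), IL26 (-1.69), KRT19 (-1.25), NEK6 (-1.80), TAGAP (-1.21), TNFSF4 (-0.46), CDC20 (-0.43), BUB1B (-0.47), GLUL (-1.37), POLA1 (-0.38), TPX2 (-0.46) and CDK2 (-0.45). Of these IGLL1, CRTAM, GFI1, IL26, KRT19 and NEK6 had a group mean under the median of all values at day 8, so the size of their difference depends on the value added before the logarithm. The call was lost in at least 1 alternative for 15 of the 21 genes: POLA1 (8 alternatives), TPX2 (4), KRT19 (3) and IL5, TAGAP, IGLL1, GLUL, CDC20, CDK2, CRTAM, ERN1, IFNG, IL26, IL3 and TSC22D1. GLUL was called at day 4 and not at day 8, and IL3 had opposite signs at the 2 days.

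The day 8 effect also differed between MJ and the mean of HuT102 and MyLa. The difference of log2 changes was above 0 for ANTXR2 (3.24), ENPP2 (3.68), KLHL5 (0.65), MAL (2.81), MYO3B (3.12), PLD5 (4.26), TSC22D1 (3.5), IKZF2 (2.26), HMGCS1 (1.51), PFKFB4 (3.14), SCD (2.04), DHCR7 (1.96) and MSMO1 (1.52). It was below 0 for CD9 (-5.31), CRTAM (-4.13), IFNG (-4.68), NEK6 (-5.47), TFPI2 (-4.60), TNFSF4 (-3.51), PICALM (-0.53), CCL22 (-2.48), BACH2 (-1.95), STAT3 (-0.96), DUSP10 (-2.07) and FOXO1 (-2.03). The size of a difference depends on the value added where a group mean lay under the median of all values. This was so for IFNG, CRTAM, TFPI2 and ANTXR2 in both MyLa groups and for MAL and IKZF2 in treated MyLa. It was so for PLD5 and IKZF2 in both HuT102 groups and CD9 in untreated HuT102, and in MJ for NEK6, CD9 and CRTAM when treated and MYO3B and PLD5 when untreated.

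Probe sets outside the gene tests carried changes as well. Of 3693 probe sets without a gene symbol that were bright enough, 524 were called in MJ at day 8 (14.2%), and of 1127 with several symbols 293 were (26.0%).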

How the results depend on the processing

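The count of 4013 genes called in MJ at day 8 was 6523 when every probe set was tested on its own (of 22696 probe sets), and 3550 to 3710 when 1 array was left out. The other alternatives gave 3287 to 5344. The count of 161 genes whose effect differed between the days was 99 without the intensity trend and 431 when only the 16 MJ arrays were fitted. It was 81 to 116 when 1 day 8 array was left out: 96, 91 and 81 without untreated replicates 1, 2 and 3, 90 without cobomarsen replicate 3, and also more than 1.5 times lower without untreated replicate 4. The count of 3116 genes whose effect differed from the other lines was 2715 to 2886 when 1 array was left out, and fitting only the MJ arrays was not run for it, since it needs the other lines. The cause of these moves was not tested. The host transcript of miR-155 was lower in all 4 treated arrays on the linear scale too, and leaving out an array was not run for it, since the exact test of 3 arrays against 4 cannot pass 0.05.

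Of 180 named genes that were called, 158 kept direction and call in the alternatives in which they were tested and 22 lost the call in at least 1. The mean of all probe sets turned SMAD2 to 0.0422 and GCLM to 0.0181, since their probe sets moved both ways. Of 21 named day differences 15 lost the call in at least 1 alternative, and of 25 named line differences 1, PICALM, did (-0.25 in the mean of its probe sets). The ribosomal protein list had 12 lower genes when only the 8 MJ day 8 arrays were fitted and 0 called here. Dim genes are least certain, since their log2 change depends on the value added: the median standard error was 0.25 under a mean signal of 500 and 0.08 at 10000 or more. No paired analysis was possible because the labels give no replicate numbers that groups share.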

Other observations

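Further changes at day 8, singled out after their values were seen, touched adhesion, migration and metabolism. CADM1, an adhesion molecule that is often raised in HTLV-1 infected T cells, rose from 1928 ± 174 to 5034 ± 183 (SD, n = 4). The integrin chains ITGA4 (140 ± 27 to 299 ± 29.4) and ITGB1 (3731 ± 230 to 7038 ± 357), which pair as VLA-4, rose, while ITGB7, another partner of ITGA4, fell from 927 ± 37.8 to 559 ± 37.2. MYO1F, a myosin of white blood cells, rose from 91.0 ± 17.2 to 559 ± 68.9. The annexins moved apart, ANXA2 from 6883 ± 611 to 13667 ± 570 and ANXA1 from 201 ± 10.02 to 91.0 ± 19.1, and the nuclear lamina gene LMNA fell from 14193 ± 268 to 7910 ± 436.

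HIF1A, the oxygen-sensing transcription factor, rose from 4729 ± 146 to 7956 ± 170, while NDRG1 (2190 ± 223 to 1054 ± 81.2) and the glucose transporter SLC2A3 (2263 ± 216 to 1139 ± 33.4) fell. The hypoxia and glycolysis list had 7 of 27 genes called higher (25.9%) and 5 lower (18.5%), against 15.1% and 18.5% over all genes tested. PFKFB4 was among the higher ones, with overlapping groups. Its call was lost in the mean of its probe sets, without untreated replicate 3 and without cobomarsen replicate 4. SMAD3, a transducer of TGF-beta, fell from 246 ± 41.2 to 104 ± 36.9, and PAG1, an adaptor that holds back T cell receptor kinases, from 4535 ± 255 to 1942 ± 96.5. All genes given here with their signals were called by limma with groups that did not overlap.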
